A study of Mus musculus with 4 samples.

Results

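Krüppel-like factors (KLFs) are zinc-finger transcription factors that bind GC-rich and CACCC sequences. The 8 genes Klf2, Klf3, Klf4, Klf6, Klf7, Klf9, Klf10 and Klf13 were chosen by symbol among 31053 measured genes, and their levels were followed through the cell classes of the mouse brain vasculature under chronic social defeat (CSD) and in the home cage (HC). Brain vascular-associated cells of male, wild-type C57BL/6 mice aged 12 to 14 weeks were enriched with magnetic beads carrying anti-CD31 antibody, CD31 being an endothelial surface protein, and sequenced as single cells (10x Genomics 3′ libraries). CSD mice lived for 14 days beside an aggressive CD-1 mouse, with a perforated partition between them that was taken out for 5 min a day. HC mice also spent 14 days beside a CD-1 mouse, but the partition between them was never taken out. Each condition had 2 libraries that pooled the cells of 4 mice each. The p-values therefore rest on the spread between pools, which the tests estimate partly from other genes. The sort enriches vascular cells but does not exclude others, and RNA was measured after enzymatic dissociation.

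KLF2 and KLF4 are best known in endothelium, where shear stress raises them through the MEKK3, MEK5 and ERK5 kinases and MEF2 factors, and where they maintain an anti-inflammatory, antithrombotic state. KLF6 is an early injury-response factor of endothelium and macrophages, and KLF7 is known from neuronal differentiation. These 4 act mainly as activators. KLF3 represses by recruiting CtBP, and KLF9, KLF10 and KLF13 bind the corepressor SIN3A. KLF9 is induced by glucocorticoid and thyroid hormones, KLF10 by TGF-beta, and KLF13 is known from T cells.

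The promoters of Klf2, Klf4, Klf6 and Klf9 are shown because they differ in the matches they hold to sites of stimulus-responsive factors. On GRCm38 the genes lie at chr8:72319033-72321656 (Klf2, + strand), chr4:55527143-55532466 (Klf4, - strand), chr13:5861482-5870394 (Klf6, + strand) and chr19:23141226-23168134 (Klf9, + strand). RefSeq (GRCm38.p6) gave a promoter for 7 of the 8 members, and Klf10 had no entry. Each run is the 250 bases before the RefSeq transcription start, 5′ to 3′ on the gene's strand. Capitals mark matches, on either strand, to a MEF2 site, a CArG box, a cAMP-response half-site (TGACG), an AP-1 site (TGANTCA) or a glucocorticoid half-site (AGAACA).
Klf2, chr8:72318812-72319061, + strand: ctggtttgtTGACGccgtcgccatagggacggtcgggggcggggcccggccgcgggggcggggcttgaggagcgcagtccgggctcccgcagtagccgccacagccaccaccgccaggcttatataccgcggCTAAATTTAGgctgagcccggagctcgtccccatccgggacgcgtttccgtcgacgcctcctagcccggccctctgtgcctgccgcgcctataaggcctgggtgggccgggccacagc
Klf4, chr4:55532476-55532725, - strand: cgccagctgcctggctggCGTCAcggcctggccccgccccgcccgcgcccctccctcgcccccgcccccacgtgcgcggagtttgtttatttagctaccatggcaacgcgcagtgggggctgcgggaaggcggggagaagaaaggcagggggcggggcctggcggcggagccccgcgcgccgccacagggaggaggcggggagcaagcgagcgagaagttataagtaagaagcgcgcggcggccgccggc
Klf6, chr13:5861239-5861488, + strand: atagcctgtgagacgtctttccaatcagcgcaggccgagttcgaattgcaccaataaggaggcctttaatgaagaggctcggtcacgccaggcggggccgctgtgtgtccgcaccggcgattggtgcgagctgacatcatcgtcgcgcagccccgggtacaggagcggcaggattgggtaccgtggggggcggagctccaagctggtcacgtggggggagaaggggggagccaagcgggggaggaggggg
Klf9, chr19:23140976-23141225, + strand: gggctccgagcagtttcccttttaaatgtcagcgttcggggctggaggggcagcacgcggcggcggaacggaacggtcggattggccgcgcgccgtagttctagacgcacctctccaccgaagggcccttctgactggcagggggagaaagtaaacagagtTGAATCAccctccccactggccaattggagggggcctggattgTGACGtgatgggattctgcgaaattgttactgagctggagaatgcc
The Klf2 promoter holds a MEF2 site that begins 118 bases before the start, and such a site is present in 2.92% of 32851 RefSeq promoters of the same length. The AP-1 site of Klf9 begins 89 bases before its start, and 6.75% of promoters hold one. A cAMP-response half-site is present in the promoters of Klf2, Klf4, Klf9 and Klf13 and in 17.8% of all promoters. None of the 7 holds a CArG box (1.47% of promoters) or the 6-base glucocorticoid half-site (16.1%), and the windows of Klf3, Klf6 and Klf7 match none of the 5 motifs. These matches describe letters in a short window, and binding was not measured.

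A barcode was taken as a cell at 500 or more UMIs (unique transcript tags), 250 or more genes and at most 25% mitochondrial UMIs. This left 14415 cells, 4079 and 2553 in CSD libraries 1 and 2 and 2849 and 4934 in HC libraries 1 and 2, from 27297599 to 30361474 UMIs per library. CSD library 2 stood apart, with 32.6% of its UMIs in cells against 51.8% to 56.8% in the others. In all, 20 barcodes occurred in more than 1 library. Cells were assigned by markers that include no Klf gene, to endothelial cells (EC, 4772 cells), microglia (4532), choroid plexus cells (1565), arterial smooth muscle cells (SMC, 489), astrocytes (354), pericytes (306) and smaller classes, and 11.4% stayed unassigned. The genes most raised in each of these named classes included markers used to assign it. Examples are Cldn5 and Flt1 in EC, P2ry12 and Cx3cr1 in microglia, Acta2 in SMC and Vtn and Kcnj8 in pericytes. The assignment brings this about, so it is no separate check of identity, and 105 of the 306 pericytes lay near the assignment limit. Levels are given as CPM, the UMIs of a gene scaled to the total UMIs of its class in a library. The RNA in barcodes of 100 or fewer UMIs is given as free RNA, since such RNA enters every droplet.

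Levels were ranked among 9 classes only. The smaller classes left out include B cells (40 cells), fibroblasts (41), neurons (47) and neutrophils and monocytes (23). Among the 9, Klf2 was highest in EC, at 2595 ± 764 CPM (SD, n = 4 libraries), with 2524 and 3571 in the CSD and 1704 and 2580 in the HC libraries. Next came arterial SMC at 1648 ± 606, microglia at 1483 ± 122, border-associated macrophages (6 cells in CSD 2) at 1243 ± 306 and ependymal cells at 1012 ± 271. Neighbours in this order overlapped between libraries down to ependymal cells. Pericytes, at 313 to 625 CPM, lay below all of these without overlap and reached little beyond the free RNA (236 to 390 CPM). Choroid plexus cells, at 60.6 to 96.1 CPM, lay below the free RNA in every library. They held medians of 11300 to 27436 UMIs, far more than the free RNA barcodes, and 31.9% to 43.4% of them held a Klf2 UMI. The lower CPM therefore does not show that their signal is background, and the part of free RNA was not tested.

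Klf4 had its highest mean in EC too, at 1179 ± 209 CPM. Border-associated macrophages (857 ± 367), microglia (781 ± 354) and arterial SMC (640 ± 182) followed with overlapping ranges. Pericytes held 238 to 395 CPM, and choroid plexus cells, at 48.2 to 54.5 CPM, again lay below the free RNA (106 to 155 CPM). Klf6 had another order. It was highest in microglia (1559 ± 661 CPM) and border-associated macrophages (1495 ± 348), followed by ependymal cells (901 ± 204) and EC (721 ± 239), and these ranges overlapped from 1 class to the next. Arterial SMC (306 to 419 CPM) lay below EC (511 to 1042 CPM) without overlap. Klf7 had its highest means in vessel-wall cells, with 329 ± 38.6 CPM in EC, 268 ± 54.8 in pericytes and 209 ± 50.1 in arterial SMC. Astrocytes, at 123 ± 57.6, overlapped SMC, microglia held 96.4 ± 37.6, and choroid plexus cells only 2.27 to 3.23 CPM.

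Among the repressors, Klf3 had its highest mean in EC, at 169 ± 24.9 CPM, which overlapped pericytes (98.6 ± 73.4, with 209 in HC 1), against 96.1 ± 15.4 in microglia and 50.7 ± 7.98 in SMC. Klf9 was high in the vessel wall and low in microglia. Arterial SMC held 615 ± 114 CPM, pericytes 577 ± 126, EC 478 ± 86.4, ependymal cells 332 ± 39.8 and astrocytes 251 ± 81.1, whereas the 4 microglial libraries held 25.5, 14.4, 12 and 22.7 CPM, all below the free RNA of Klf9 (84.4 to 126 CPM). Whether the microglial Klf9 counts come from the cells or from free RNA was not tested. Klf10 was low throughout, with its highest mean in microglia (124 ± 61.9 CPM) and 54.1 ± 13.6 CPM in EC, and pericytes (0 to 29.8 CPM) and arterial SMC (2.45 to 22.5 CPM) lay around the free RNA (8.80 to 19.7 CPM). Klf13 was spread more evenly, from 314 ± 68.8 CPM in EC and 238 ± 75.0 in T cells to 48.5 ± 2.60 in choroid plexus cells.

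**Figure D1:**
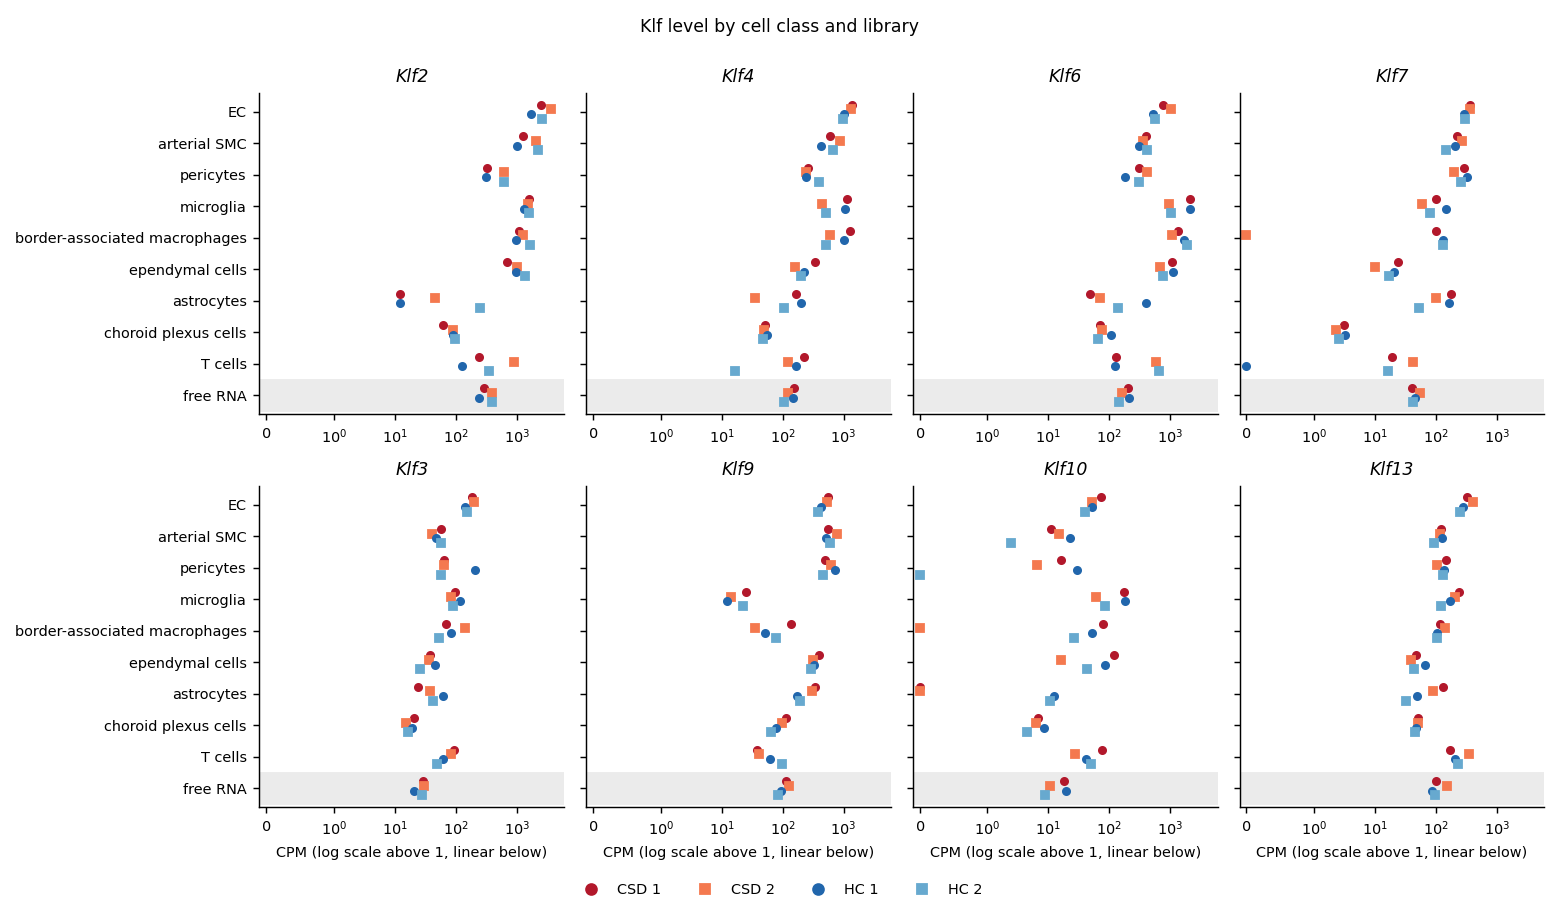
Level of each member in 9 cell classes and in the free RNA (grey band), as CPM on a log axis that is linear below 1, with 1 point per library (red CSD, blue HC; circles libraries 1, squares libraries 2). EC lead for Klf2, Klf3, Klf4, Klf7 and Klf13, microglia for Klf6 and Klf10, and Klf9 in microglia lies at 12 to 25.5 CPM, below its free RNA.

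Classes were then compared within libraries by edgeR's quasi-likelihood test with the library as a block and Benjamini-Hochberg adjustment over all genes tested. Between microglia and EC, 6 of 8 members differed, where 64.8% of 11257 genes did. Klf6 was 2.59-fold higher in microglia (log2 fold change 1.37 ± 0.28 SE, edgeR adjusted p = 0.00060) and Klf10 2.63-fold higher (1.40 ± 0.20, edgeR adjusted p = 2.6e-05). Klf9 was lower, at a log2 fold change of -4.40 ± 0.22 (edgeR adjusted p = 4.2e-10). Its size rests on microglial counts below the CPM of the free RNA, whose source was not tested. Klf7 was 2.89-fold lower (-1.53 ± 0.21) and Klf3 and Klf13 each 1.42-fold lower. The differences of Klf2 (-0.46 ± 0.20, edgeR adjusted p = 0.060) and Klf4 (-0.39 ± 0.23, edgeR adjusted p = 0.16) did not pass. The call of Klf3 was lost without CSD library 1 (edgeR adjusted p = 0.10), and that of Klf13 without HC library 2 (edgeR adjusted p = 0.059).

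Mural cells held less of most members than EC. In pericytes, 7 of 8 members were lower (28.8% of 9803 genes differed), among them Klf2 by 6.24-fold (log2 fold change -2.64 ± 0.21, edgeR adjusted p = 1.0e-34), Klf4 by 4.61-fold (-2.20 ± 0.21) and Klf6 by 2.65-fold (-1.41 ± 0.20). Klf9 was the exception, at 0.10 ± 0.18 (edgeR adjusted p = 0.76). A p-value as small as that of Klf2, from 4 libraries, rests on the spread that edgeR shares over genes. It does not measure the spread of Klf2 alone between pools. Klf10 rested on 0 to 2 UMIs a library in pericytes. The median log2 fold change of all genes was -0.15, and pericytes held a median of 7 astrocyte-marker UMIs beside 33.5 mural ones, whose part in these values was not tested. Klf7 was no longer called without CSD library 2 (edgeR adjusted p = 0.44). In arterial SMC all 8 members differed (54.9% of 10085 genes did): Klf9 was 1.55-fold higher than in EC (0.63 ± 0.11, edgeR adjusted p = 9.1e-06), and the other 7 were lower, from Klf10 at -1.79 ± 0.26 to Klf7 at -0.39 ± 0.12. Klf2 was lower in SMC by a log2 fold change of only -0.41 ± 0.12 (edgeR adjusted p = 0.0029), which was not called without CSD library 1 (edgeR adjusted p = 0.066).

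Along the vascular tree, 1 of 8 members differed between arterial EC (191 cells) and capillary EC (4047 cells), where 10.1% of 8405 genes did. Klf7 was lower in arterial EC, with 253, 342, 231 and 149 CPM in CSD 1, CSD 2, HC 1 and HC 2 against 377, 365, 290 and 311 in capillary EC (log2 fold change -0.54 ± 0.16, edgeR adjusted p = 0.0093). The call was lost without CSD library 1 (edgeR adjusted p = 0.086) or HC library 2 (edgeR adjusted p = 0.20), and Klf4 was called without CSD library 2 (0.30, edgeR adjusted p = 0.019). Klf2 did not pass (-0.018 ± 0.091), at 1778 to 3424 CPM in arterial and 1698 to 3594 CPM in capillary EC. The genes most raised in capillary EC over other EC began with the hemoglobin genes Hbb-bs and Hba-a1, and included Car4 and Slc7a5. Venous EC were 63 cells, led by inflammatory genes such as Ptgs2 and Lcn2. None of the members passed there against capillary EC by edgeR (2.17% of 8142 genes did). An unadjusted p under 0.05 was found for 2 of 8 members and for 1156 genes in all. Klf2 came nearest, at 1267, 1557, 1477 and 2620 CPM (log2 fold change -1.05 ± 0.33, edgeR adjusted p = 0.058). The median log2 fold change of all genes in that comparison was -0.50.

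CSD and HC were compared class by class. In EC, all 8 members had a higher mean in CSD, and none passed edgeR's test (4 of 9867 genes did, 0.0405%), while all 8 had an unadjusted p under 0.05, as did 812 genes in all. DESeq2 called Klf6 alone of the members (0.412% of genes). The 4 activators are given first, as CPM in CSD 1, CSD 2, HC 1 and HC 2. Klf2 stood at 2524, 3571, 1704 and 2580, so that CSD 1 fell just under HC 2. Klf4 stood at 1378, 1340, 1029 and 971, Klf6 at 761, 1042, 511 and 569, and Klf7 at 358, 365, 291 and 300. For these 3 both CSD libraries lay above both HC libraries. The share of all genes that did so was computed only after TMM scaling, where it was 19.9%.

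Klf6 had the largest endothelial difference, 1.74-fold (log2 fold change 0.80 ± 0.18 SE, edgeR adjusted p = 0.19, DESeq2 adjusted p = 0.0040). With a library left out, its log2 fold change ran from 0.59 to 0.99. Klf4 differed by 1.42-fold (0.51 ± 0.15, edgeR adjusted p = 0.37), with 0.45 to 0.57 when a library was left out. Klf2 differed by 1.49-fold (0.57 ± 0.23, edgeR adjusted p = 0.57), with 0.32 to 0.88 when a library was left out. Klf7 had the smallest difference of the 8 members (0.36 ± 0.14, edgeR adjusted p = 0.56).

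The repressors differed to a similar extent. Klf9 stood at 560, 542, 428 and 383 CPM (log2 fold change 0.51 ± 0.15, edgeR adjusted p = 0.37) and Klf13 at 327, 403, 282 and 243 CPM (0.54 ± 0.17, edgeR adjusted p = 0.38). Klf3 stood at 183, 196, 143 and 153 CPM (0.42 ± 0.14, edgeR adjusted p = 0.45), and Klf10, from 70 to 133 UMIs a library, at 72.5, 52.6, 51.4 and 39.7 CPM (0.52 ± 0.22, edgeR adjusted p = 0.60). For all 4 both CSD libraries lay above both HC libraries, Klf10 by a margin of little over 1 CPM. On this unscaled CPM the share of all genes was again not computed. With a library left out, Klf9 ran from 0.41 to 0.61, Klf10 from 0.24 to 0.76 and Klf13 from 0.41 to 0.67. The median of the 8 log2 fold changes was 0.51, beside 0.0035 for all genes. After TMM scaling, which moves Klf2 in CSD 1 to 2659 and in HC 2 to 2517 CPM, both CSD libraries lay above both HC libraries for all 8 members, where 19.9% of genes did so.

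**Figure D2:**
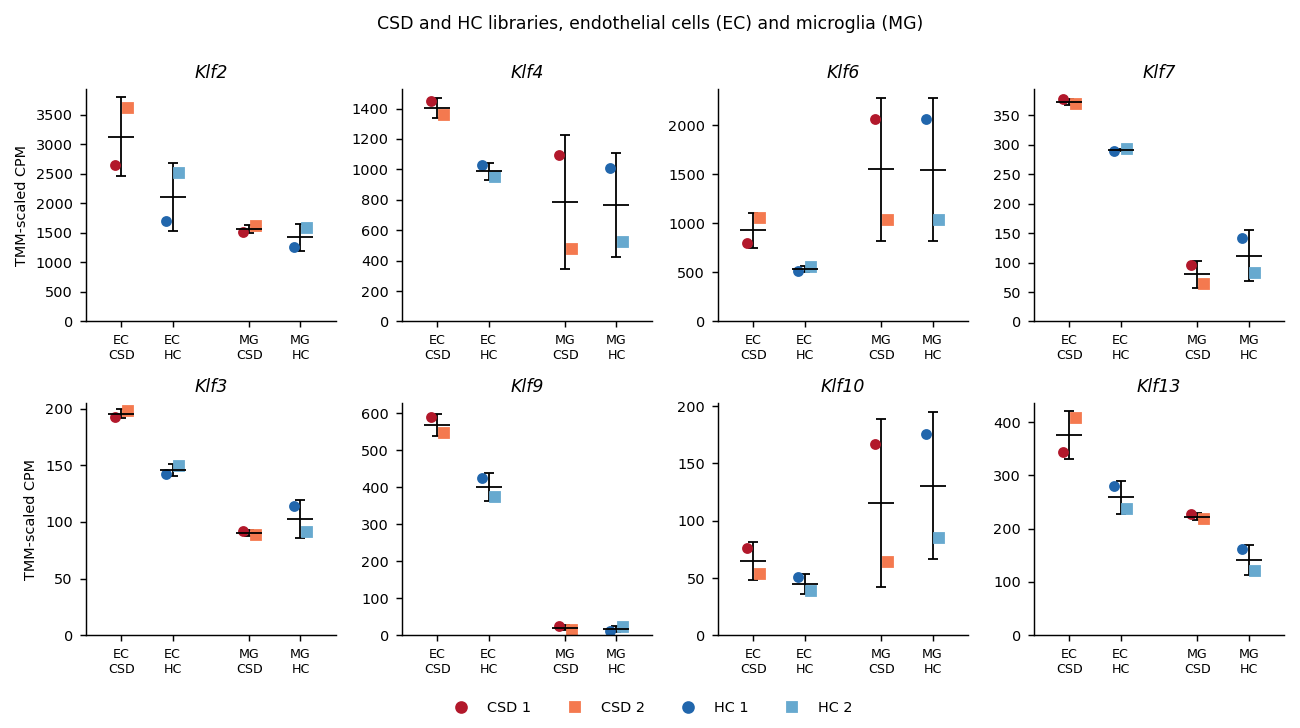
TMM-scaled CPM of each member in EC and microglia (MG), with 1 point per library and bars for the mean ± SD of 2 libraries. In EC every CSD point lies above both HC points, whereas in microglia Klf4, Klf6 and Klf10 split by library number, with Klf6 at 2065 and 1032 in CSD and 2063 and 1031 in HC.

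Immediate-early genes, which tissue dissociation is known to induce, stood higher in the summed EC counts of the CSD libraries. A list of 24 such genes summed to 19226 and 22563 CPM in the EC of CSD and 14994 and 15176 CPM in those of HC. Among cells under 1% of UMIs from 6 such genes (Fos, Fosb, Jun, Junb, Egr1 and Ier2), the log2 fold change was 0.96 for Klf6 (edgeR adjusted p = 0.093), 0.65 for Klf4 (edgeR adjusted p = 0.25), 0.73 for Klf2 (edgeR adjusted p = 0.27) and 0.48 for Klf9 (edgeR adjusted p = 0.47). None of these passed, and the part of the immediate-early genes in the EC differences was not tested.

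The endothelial differences of Klf2, Klf4 and Klf6 could also be seen in the share of cells with a UMI. Cells were thinned to 1000 UMIs, which left out 279 to 1064 EC per library. Klf6 was then detected in 46.6% and 56.4% of EC in CSD and 33.1% and 38.3% in HC, and before thinning in 52.1%, 62.7%, 43.3% and 33.4%. Klf4 was detected in 62.0% and 57.7% against 46.9% and 53.4%, and Klf2 in 85.5% and 88.2% against 69.8% and 80.9%. Both thinned CSD shares also lay above both HC shares for Klf3, Klf7, Klf9 and Klf13, but by narrow margins. The nearest values for Klf3 were 16.7% in CSD 1 and 15.8% in HC 2. For Klf7 they were 27.0% and 25.7% in the same libraries. For Klf9 they were 38.1% in CSD 2 and 36.2% in HC 2. For Klf13 they were 28.0% in CSD 1 and 27.6% in HC 1. The 95% Wilson intervals of each such pair overlapped. The share of all genes that separate in this way was not computed. The shares of Klf10 overlapped, at 5.87% and 3.56% in CSD and 4.46% and 5.03% in HC. For Klf4 the 95% Wilson interval of CSD 2 (54.1% to 61.2%) overlapped that of HC 2 (49.3% to 57.3%). For Klf2 the interval of CSD 1 (82.6% to 87.9%) overlapped that of HC 2 (77.5% to 83.8%). Choroid plexus cells, thinned likewise, gave 5.50% to 9.21% for Klf6, 1.32% to 4.79% for Klf4 and 4.23% to 8.53% for Klf2. They came from unthinned medians of 11300 to 27436 UMIs against 856 to 1472 in EC. Thinning thus removed a larger part of their UMIs, of whatever source, than of those of EC. These shares are therefore not taken as the background level of EC, and the part of free RNA was not tested. The Wilson intervals cover counting error only.

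Capillary EC, the bulk of EC, showed similar values. None of the members passed edgeR's test (0.193% of 9305 genes did), and DESeq2 called Klf4 and Klf6 (0.327% of genes). An unadjusted p under 0.05 was found for 7 of 8 members and for 796 genes in all. After TMM scaling both CSD libraries were above both HC libraries for 7 members (20.2% of genes), Klf10 being the exception. Klf4 stood at 1301 and 1347 CPM in CSD and 921 and 930 CPM in HC (log2 fold change 0.57 ± 0.14, edgeR adjusted p = 0.18, DESeq2 adjusted p = 0.017). Klf6 stood at 706 and 1039 CPM against 483 and 552 CPM (0.81 ± 0.18, edgeR adjusted p = 0.14, DESeq2 adjusted p = 0.0060). With a library left out, the log2 fold change ran from 0.53 to 1.04 for Klf6 and from 0.33 to 0.89 for Klf2. In arterial EC, where 7 members had enough counts, none passed by edgeR (0.271% of 2214 genes did) or DESeq2 (0.00817% of genes). Of the members only Klf6 had an unadjusted p under 0.05, as did 130 genes in all. Both CSD libraries were above both HC libraries for Klf4, Klf6 and Klf7 after TMM scaling (15.9% of genes). In venous EC, none of 6 tested passed by edgeR (0% of 452 genes) or DESeq2. An unadjusted p under 0.05 was found for 1 of them and for 38 genes in all.

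In microglia several members differed widely between libraries of the same condition. None of the members differed between CSD and HC by edgeR (0% of 9963 genes) or DESeq2 (0.00572% of genes). Of the members only Klf13 had an unadjusted p under 0.05, as did 133 genes in all. Klf13 stood at 235 and 203 CPM in CSD and 167 and 119 CPM in HC (log2 fold change 0.66 ± 0.26, edgeR adjusted p = 1.0), and was the only member for which both CSD libraries lay above both HC libraries (10.6% of genes). Klf6 held 2130 CPM in CSD 1 and 2132 in HC 1, but 961 in CSD 2 and 1013 in HC 2.

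Klf4 followed the same split, with 1129 and 1040 CPM in the libraries numbered 1 and 442 and 513 in those numbered 2, and so did Klf10, with 172 and 182 against 59.5 and 83.8 CPM. After TMM scaling the libraries numbered 1 lay above those numbered 2 for Klf3, Klf4, Klf6, Klf7 and Klf10 (29% of genes), and below them for Klf2 (25.6% of genes). The labels do not say what a library number stands for, and its part in these levels was not tested. Standard errors of the CSD effect were accordingly wide, with 0.0015 ± 0.47 for Klf6, 0.038 ± 0.49 for Klf4 and -0.18 ± 0.52 for Klf10 on the log2 scale. No microglial member changed its side of the threshold when a library was left out. Microglia of CSD 2 were 647 cells with a median of 4902 UMIs, against 1871 to 2711 UMIs in the other libraries.

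**Figure D3:**
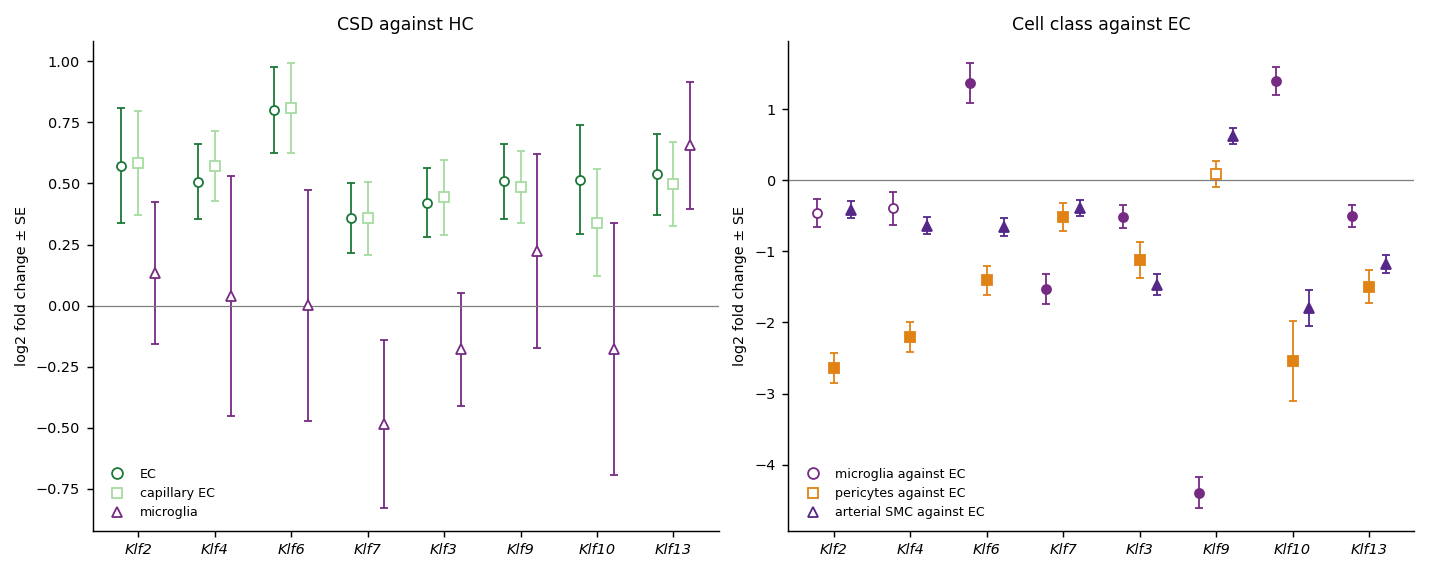
Log2 fold changes ± SE from edgeR, filled where the adjusted p is under 0.05, for CSD against HC in 3 classes (left) and for 3 classes against EC (right). On the left all EC and capillary EC values are positive, from 0.34 to 0.81, and open, and on the right Klf9 runs from -4.40 in microglia to 0.63 in arterial SMC.

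In the remaining classes the members showed no common direction. Among pericytes none of 6 tested passed by edgeR (0.0583% of 1715 genes) or DESeq2. None of them had an unadjusted p under 0.05, where 67 genes in all did. Among arterial SMC the same was true of 7 tested (0% of 6425 genes passed, and 206 had an unadjusted p under 0.05). Klf2 stood there at 1246 and 2068 CPM in CSD and 1020 and 2257 CPM in HC. Among choroid plexus cells none of 8 passed by edgeR (0.0525% of 11420 genes) or DESeq2 (0.0225% of genes). Of the members only Klf9 had an unadjusted p under 0.05, as did 336 genes in all. Klf9 stood at 114 and 98 CPM in CSD and 77.4 and 65.0 CPM in HC. These values lie within or below the free RNA range of Klf9 (84.4 to 126 CPM). Before thinning, 45.3% to 75.5% of choroid plexus cells held a Klf9 UMI, and the part of free RNA was not tested.

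Among astrocytes, where 4 members could be tested, none passed by edgeR (0.496% of 1209 genes) or DESeq2 (0.0217% of genes). Klf6 had an unadjusted p under 0.05, as did 30 genes in all. It stood at 47.8 and 69.5 CPM in CSD and 395 and 138 CPM in HC, from 4, 20, 32 and 13 UMIs (log2 fold change -2.09 ± 0.55, edgeR adjusted p = 0.074). Without the rule that a cell's own markers outweigh those of other lineages, the difference was -0.11. It ran from -2.55 to -1.23 when a library was left out. The immediate-early list moved the same way in astrocytes, at 1686 and 1450 CPM in CSD and 5343 and 4609 CPM in HC, and its part in the Klf6 values was not tested. The free RNA of Klf6 lay at 145 to 212 CPM, above the astrocytes of 3 of the 4 libraries.

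Whether the CSD effect differed between classes was tested with an interaction term. None of the 8 members passed by edgeR for microglia against EC (0% of 11257 genes). None passed for arterial against capillary EC (0.0357% of 8405 genes) or venous against capillary EC (0% of 8142 genes). No member had an unadjusted p under 0.05 in these fits, where 382, 335 and 105 genes in all did. Between choroid plexus cells and EC none passed either (0.0179% of 11196 genes), and 4 members had an unadjusted p under 0.05, as did 537 genes in all. Klf2 was lower there by -0.94 ± 0.23 (edgeR adjusted p = 0.35) and Klf6 by -0.96 ± 0.25 (edgeR adjusted p = 0.52). With a library left out, Klf2 ran from -1.20 to -0.69 and Klf6 from -1.40 to -0.52. In choroid plexus cells the CPM of both genes lay below that of their free RNA. Before thinning, 31.9% to 43.4% of these cells held a Klf2 UMI and 31.5% to 52.3% a Klf6 UMI. The CPM alone does not show whether these counts are background, and the part of free RNA was not tested. For microglia against EC, Klf6 differed by -0.78 ± 0.60 and Klf4 by -0.51 ± 0.54, so that equal effects in both classes were not shown.

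Within a class, several members varied with the immediate-early share of the cell. In thinned EC, Klf4 was higher in cells at 2% or more than in cells under 1% by 2.74-fold in CSD 1, 2.61-fold in CSD 2, 3.35-fold in HC 1 and 3.25-fold in HC 2. Klf6 was higher by 1.86 to 3.47-fold and Klf2 by 1.55 to 2.85-fold. Klf13 was higher by 1.33 to 1.58-fold and Klf10, from 7 to 19 UMIs a fraction, by 1.33 to 4.97-fold. Klf7 (1.06 to 1.17-fold) and Klf9 (1.13 to 1.30-fold), by contrast, hardly varied, and Klf3 varied in both directions (0.43 to 1.59-fold). In microglia Klf4 was higher by 2.60 to 4.01-fold, Klf6 by 1.66 to 3.60-fold, Klf2 by 1.59 to 4.28-fold and Klf13 by 1.13 to 2.85-fold. The cells of a library share its free RNA, and these folds are descriptions.

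Libraries were also compared among cells of like immediate-early share. In EC under 1%, Klf6 held 551 and 758 CPM (of thinned UMIs) in CSD and 324 and 337 in HC, and Klf4 830 and 816 in CSD and 539 and 576 in HC. In EC at 1% to 2% the conditions overlapped for Klf2 (2554 and 3961 in CSD, 2419 and 3508 in HC), Klf4 (1682 and 1624, 1744 and 1517) and Klf6 (824 and 1124, 663 and 873). In EC at 2% or more they overlapped for Klf2 (3252 and 5399, 3361 and 4910) and Klf6 (1026 and 1572, 1125 and 1015), and not for Klf4 (2272 and 2130, 1806 and 1873). In microglia under 1%, Klf6 held 1641 in CSD 1 and 1277 in HC 1 against 460 in CSD 2 and 730 in HC 2, so that the split by library number was present within this fraction too. Klf10 kept that split in all 3 fractions, from 158 to 192 in libraries 1 and from 36.0 to 88.5 in libraries 2.

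**Figure D4:**
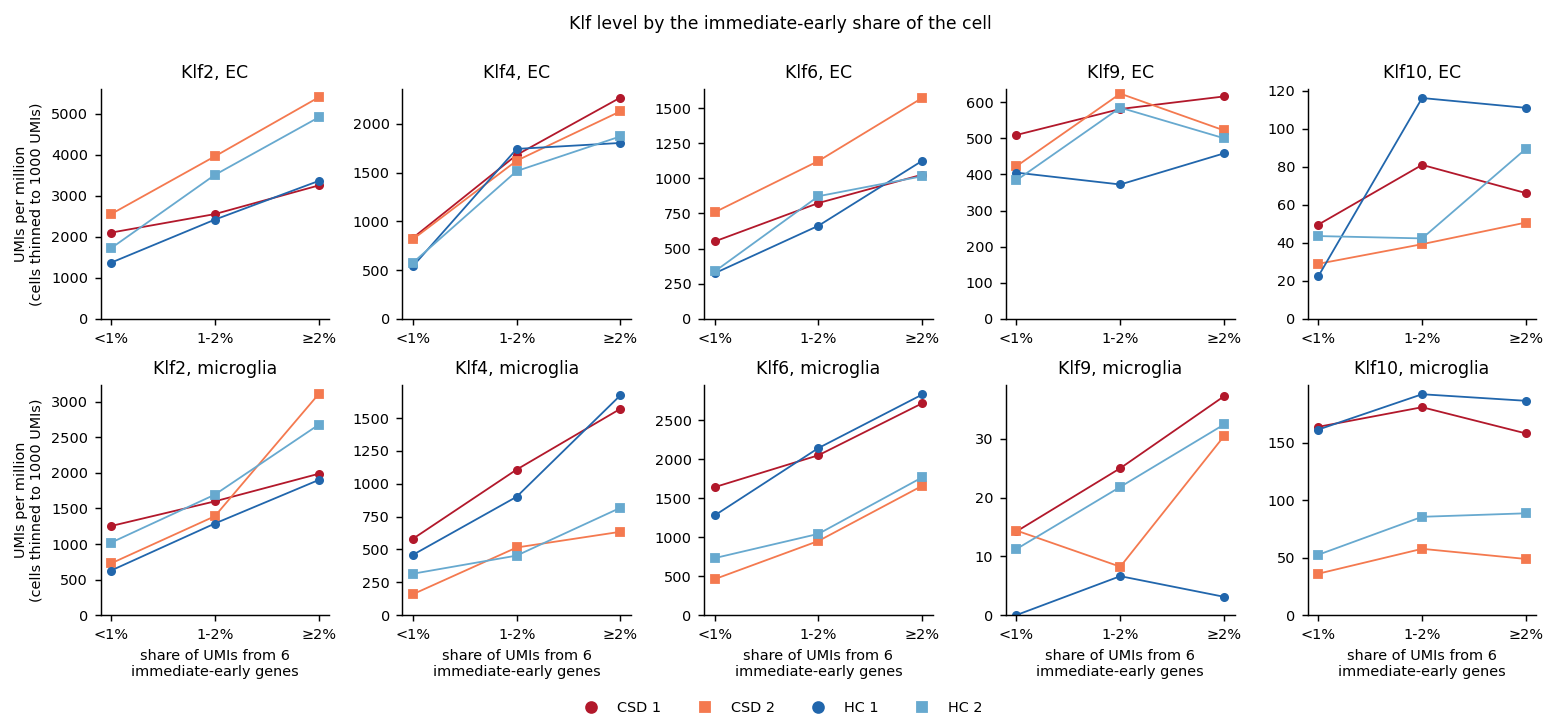
Level of 5 members, as CPM in cells thinned to 1000 UMIs, by the share of the cell's UMIs from 6 immediate-early genes, in EC (top) and microglia (bottom), with 1 line per library. Klf2, Klf4 and Klf6 climb with the share in every library, Klf9 in EC stays within a narrow range, and Klf4, Klf6 and Klf10 of microglia lie higher in libraries 1 than 2 in each fraction.

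Members were also compared by detection in the same cells. Among thinned EC, Klf4 was found 1.27 to 2.19 times as often in cells with a Klf2 UMI as in cells without, and Klf6 1.23 to 1.70 times as often in cells with Klf4. In microglia the ratios were 1.27 to 2.03 and 1.17 to 1.68. Some other members were likewise found more often in cells with a Klf2 UMI, at 1.10 to 1.48 for Klf9 and 1.19 to 1.91 for Klf10 in EC. In microglia the ratio was 1.26 to 1.68 for Klf13. Others ran both ways between libraries, with Klf3 at 0.72 to 1.26 and Klf13 at 0.95 to 1.48 in EC. In microglia Klf7 ran from 0.73 to 1.47, Klf10 from 0.87 to 1.45 and Klf3 from 0.98 to 1.38. For Klf3 and Klf4 in EC the ratio was 0.92 to 0.99, so that Klf3 was found about as often in cells with a Klf4 UMI as in cells without. Detection at this depth is partial, and these shares are descriptions.

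Genes around the members were described by 7 lists, of which edgeR's test of CSD against HC called 1 gene in EC and none in microglia. Of all genes, 812 of 9867 in EC and 133 of 9963 in microglia had an unadjusted p under 0.05. Of 12 genes that act upstream of KLF2 and KLF4, such as Mef2a and the CCM complex receptor Heg1, none passed in EC (8 positive, median log2 fold change 0.22, 1 unadjusted p under 0.05, DESeq2 none). Heg1 stood at 0.24 ± 0.15 and Mef2a at 0.13 ± 0.17. Of 8 tested endothelial genes known to respond to KLF2 and KLF4, none passed by edgeR (6 positive, median 0.27, 2 unadjusted) and DESeq2 called 2. S1pr1, the sphingosine 1-phosphate receptor of endothelium, held 868 and 895 CPM in CSD and 589 and 602 CPM in HC (0.63 ± 0.14, edgeR adjusted p = 0.21), and Kdr, a VEGF receptor that KLF2 represses, differed by -0.10 ± 0.17. Vcam1, a leukocyte adhesion molecule that KLF2 and KLF4 are known to repress, had the largest difference of this list, a choice made after its values were seen. It held 299 and 215 CPM in CSD and 139 and 76.1 CPM in HC (1.32 ± 0.29, edgeR adjusted p = 0.19, DESeq2 adjusted p = 0.0012).

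Of 8 tested other KLF and SP genes none passed in EC (6 positive, median 0.13, 1 unadjusted, DESeq2 none), with Sp3 at 0.20 ± 0.17 and Sp1 at 0.019 ± 0.17. Cofactors of the family did not pass either (6 of 11 positive, median 0.013, 1 unadjusted, DESeq2 none), with Crebbp at 0.013 and Ctbp1 at -0.054. Among 8 early TGF-beta genes none passed (6 positive, median 0.22, 2 unadjusted, DESeq2 none), with Id1 at 0.22 and Id3 at -0.18. In the glucocorticoid-responsive list all 13 genes tested were positive in EC (median 0.82), and Cdkn1a, which encodes the cell cycle inhibitor p21, rose (605 and 723 CPM in CSD, 226 and 257 in HC, log2 fold change 1.52 ± 0.16, edgeR adjusted p = 0.027). In that list 11 had an unadjusted p under 0.05 and DESeq2 called 6. In the immediate-early list 22 of 24 were positive (median 0.62), none passed by edgeR, 13 had an unadjusted p under 0.05 and DESeq2 called 10, with Jun at 0.40 and Fos at 0.41.

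In microglia edgeR called no gene of any list. The glucocorticoid-responsive genes were all positive there too (13 of 13, median 0.37, 4 unadjusted, DESeq2 1), as were 17 of 24 immediate-early genes (median 0.15, 0 unadjusted, DESeq2 none). The medians of the other 5 lists in microglia ran from -0.32 for the endothelial KLF2 and KLF4 genes, of which 4 were tested, to 0.12 for the other KLF and SP genes, with 0 unadjusted p under 0.05 and none called by DESeq2. The CSD samples behind these lists are those behind the members, so the values are set side by side and not as separate evidence.

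The genes most like each member across 9 classes were found by Pearson's r of mean log2(CPM + 20), among 7184 genes. Klf2 was nearest to Gnai2 (r = 0.93), Sertad1 and Btg2, and Klf4 to Uap1 (r = 0.95), Rab7 and Gnai2. Klf6 was nearest to Txnip (r = 0.95), Usf1 and Tgfbr2, and Klf7 to Map7d1 (r = 0.99), Psmd11 and Zranb1. Klf3 was nearest to Fam117b (r = 0.97), Arid4a and Arhgap31, Klf9 to Selenow (r = 0.98), Hadh and Gna11, Klf10 to Rps6ka1 (r = 0.93) and St3gal6, and Klf13 to Elk4 (r = 0.98), Znrf1 and Ankrd13a. The 9 points come from the same libraries and differ in depth, and with so many genes high values of r arise readily.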

How the data were processed

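The authors deposited, for each library, a matrix of UMI counts per gene and barcode, without cell calling or normalization. The submitters' processing notes name Cell Ranger 4.0 and GRCm38, and the matrix headers software version 3.1.0. Cells were assigned to a class with at least 3 marker UMIs from at least 2 markers and 3 times those of the next lineage, which leaves out most barcodes with markers of 2 lineages. No doublet caller was run. Counts were summed per library and class and tested two-sided with edgeR 4.0.16 in R 4.3.3 (quasi-likelihood F-test after filterByExpr and TMM scaling, Benjamini-Hochberg threshold 0.05), with DESeq2 1.42.0 as an alternative. Comparisons between classes had the library as a block, and interactions of class and condition used a robust fit in addition. Alternatives were RLE scaling, no filter on low counts, other limits on cells, stricter and looser gates, cells of low immediate-early share, a replicate block and leaving out each library. The fits were tested on simulated counts. For CSD against HC in EC (9853 genes), 76% of changes of 1 on the log2 scale and 100% of changes of 2 were recovered. For the interaction (10227 genes) these shares were 32% and 86%. The simulation gave all genes the median dispersion. It held no changes as small as those of the members in EC (0.36 to 0.80). Members, markers and lists were chosen with earlier results of these data known. The text names all 8 members, per list up to 4 genes passing in EC or microglia or else the 2 with the highest mean CPM in EC, and per member the 3 most correlated genes, of which 1 is not reported here. Behaviour was not analysed here.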

Additional observations from a re-analysis of the deposited data

How the results depend on the processing

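Of 1292 member results under the alternatives, 1144 kept their direction and side of the threshold, 7 lost a call, 22 gained one and 119 changed direction. No member changed direction in EC or capillary EC. Fits of CSD against HC with a library left out keep 1 library in a condition. The share of all genes they call was not computed, and counts of members called are not given for them. The count of members called for CSD against HC in EC was 1 with DESeq2. In capillary EC it was 2 with DESeq2 and 3 with no filter on low counts (Klf2, Klf4 and Klf6). In astrocytes it was 1 at 1000 UMIs or more per cell and 1 with the complexity filter of 0.8, Klf6 each time. Klf2 in microglia against EC passed at 1000 UMIs or more per cell, and Klf7 in pericytes against EC did not pass with the stricter gate. Between arterial and capillary EC the members called changed with the setting. For the alternatives other than DESeq2 and the replicate block, the share of all genes called was not computed. Their calls are therefore not read as results about the members. The cause of the changes was not tested.

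With a library left out, the microglial CSD effect on the log2 scale ran from -0.012 to 0.33 for Klf2, from -0.32 to 0.0060 for Klf3, from -0.68 to 0.60 for Klf4, from -0.58 to 0.60 for Klf6, from -0.18 to 0.81 for Klf9 and from -1.03 to 0.45 for Klf10. Klf9 in pericytes against EC was -0.53 with the stricter gate and ran from -0.014 to 0.24 with a library left out, and the interaction of Klf4 for microglia and EC from -1.05 to 0.028. Over all genes, edgeR and DESeq2 called 4 and 70 in EC, 18 and 54 in capillary EC and 0 and 1 in microglia.

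The labels number the libraries 1 and 2 in both conditions without saying that a number marks a batch. Same-numbered libraries deviated together in microglia (r = 0.71) and little in EC (r = 0.056). With a replicate block, 18 genes (0.182%) were called in EC, 95 (1.02%) in capillary EC, 13 (0.13%) in microglia and 16 (1.32%) in astrocytes. Of the members, 1 (Klf6) was called in capillary EC and 1 (Klf6) in astrocytes. The block turned Klf4 in microglia to -0.0070. It changed no call of a member in EC or microglia. Of the list genes the block called Cdkn1a, Fkbp5, Cebpd, Vcam1 and Maff in EC, where edgeR without it called Cdkn1a, and Fkbp5, Ddit4 and Zbtb16 in microglia, where it called none (edgeR adjusted p = 0.0017, 0.0017 and 0.049 with the block).

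Depth limits Klf10, which rests on 70 to 133 UMIs a library in EC and on 0 to 2 in pericytes, and the 63 venous EC.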
